A study of Mus musculus with 7 samples.

Results

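The miR-465 family is a set of X-linked mouse microRNAs. Its members were taken as every row of the deposited expression table whose name begins with miR-465, which gave 6 of the 331 listed mature miRNAs, 3 from the 5p arm (mmu-miR-465a-5p, mmu-miR-465b-5p and mmu-miR-465c-5p, where mmu stands for the mouse) and 3 from the 3p arm (mmu-miR-465a-3p, mmu-miR-465b-3p and mmu-miR-465c-3p). Small RNA of whole testes from the outbred mouse strain CD1 was sequenced as 1 library for each of 7 conditions. T6 and T10 were uncultured testes of 6.5 and 10.5 dpp (days post-partum) mice, which the sample labels also list as 6 and 10 days old, and TAD was uncultured testis of an adult of 2 months. T6-12K and T6-12A were 6.5 dpp testes kept for 12 days as explants at a gas-liquid interface on agarose, with KSR or AlbuMAX I as the supplement. T10-12K and T10-12A were 10.5 dpp testes cultured for the same time with the same supplements. According to the methods, an explant was a whole testis at 6.5 dpp and a cut piece of a testis at 10.5 dpp. Among the cultures, starting age and explant form therefore cannot be told apart. KSR is a serum replacement and AlbuMAX I a lipid-rich bovine serum albumin.

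A miRNA is cut from a hairpin precursor, whose 5′ side gives the 5p arm and whose 3′ side gives the 3p arm. One arm is usually loaded into an Argonaute protein more often than the other, and bases 2 to 8 of the loaded strand, the seed, take the main part in finding target mRNAs. Paralogs are copies of a miRNA gene that arose by duplication. The miR-465 genes belong to a fast-evolving group of X-linked miRNA genes related to miR-506, which is known for its preferential expression in the testis.

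The mature sequences are shown because they decide which rows can be told apart. They come from RefSeq on GRCm38.p6, the C57BL/6J reference, and the seed is in capitals.
miR-465a-5p: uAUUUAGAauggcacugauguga
miR-465b-5p: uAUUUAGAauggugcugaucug
miR-465c-5p: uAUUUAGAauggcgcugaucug
miR-465a-3p, miR-465b-3p and miR-465c-3p: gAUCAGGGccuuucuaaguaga

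The 6 rows held 4 different sequences. All 3 of the 5p arms had the seed AUUUAGA, and the 3p arms had 1 sequence between them. With positions counted from 1 at the 5′ end, miR-465b-5p and miR-465c-5p differed by U13C alone. From miR-465a-5p to miR-465c-5p the substitutions were A14G and G20C, outside the seed. Among the 288 listed miRNAs with a RefSeq sequence, no other miRNA had either seed.

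The hairpins are shown for 1 copy of each paralog, with the 5p and 3p arms in capitals, because the same 3p arm stands in each of them.
Mir465 (miR-465a), chrX:66839052-66839125, minus strand: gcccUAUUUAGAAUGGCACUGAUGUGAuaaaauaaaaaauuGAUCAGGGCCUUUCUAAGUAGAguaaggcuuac
Mir465b-1, chrX:66829202-66829280, minus strand: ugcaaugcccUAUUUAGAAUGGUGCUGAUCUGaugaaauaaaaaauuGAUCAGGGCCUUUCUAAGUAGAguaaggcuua
Mir465c-1, chrX:66825955-66826035, minus strand: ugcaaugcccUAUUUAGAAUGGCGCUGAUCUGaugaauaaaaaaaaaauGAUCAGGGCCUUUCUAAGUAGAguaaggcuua

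A second copy of miR-465b lay at chrX:66835764-66835842 and a second copy of miR-465c at chrX:66832517-66832597, and each was identical to the first over the whole hairpin. Together with Mir465d, at chrX:66822656-66822713, the 6 hairpins spanned 16.5 kb of the minus strand at a regular spacing, with gaps of 3167 to 3242 bases. None overlapped another annotated gene. The nearest protein-coding genes were Slitrk2, 161 kb before the cluster, and Gm1140, 844 kb after it. Neither arm of miR-465d was among the listed miRNAs.

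Every level below is in CPM, the reads of a row scaled to a common total of reads on listed miRNAs in every library (counts per 1000000). The deposited values were scaled reads, and whole reads were recovered from them. Reads on listed miRNAs ranged from 1628770 in TAD to 13397407 in T10, so TAD gave the least precise values. A row listed at 0 was taken to have had fewer than 5 reads, since the lowest value above 0 was 5 reads (7 in T10). In CPM, 5 reads are worth 0.374 in T6 and 3.07 in TAD. No condition had a replicate library, the labels name a single mouse for each uncultured library and no number of explants for the cultured ones, and no difference could be set against the spread between animals. Intervals are 95% intervals for counting error only. In whole testis, fewer cells of a type and less RNA per cell cannot be told apart. Of the 7 marker lists used to check the tissue, the germ cell list (miR-34c-5p, miR-34b-5p and miR-449a-5p) was listed in full. Its summed level ran from 71.8 CPM in T6 to 25222 CPM in TAD. The red blood cell markers miR-451a and miR-144-3p were at 0 in all 4 cultured libraries. The other marker on that list, miR-486a-5p, stood at 445 CPM (T6-12A) to 2554 CPM (T6-12K) in them.

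miR-465c-5p was the main product of the family in every library and held between 71.4% (T6-12A) and 80.3% (T10-12K) of the family's reads. Its level was 1949 CPM in T6, 2865 CPM in T10, 304 CPM in T6-12K, 988 CPM in T6-12A, 1267 CPM in T10-12K, 1115 CPM in T10-12A and 4020 CPM in TAD. The uncultured testes were the high samples, with the adult highest, and the 6.5 dpp testis cultured with KSR was the low one. The corresponding rank among the 331 miRNAs ran from 28 in TAD to 61 in T6-12K.

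The other 5p arm found in all libraries, miR-465a-5p, was far less abundant. It stood at 62.6 CPM in T6, 106 CPM in T10, 18.9 CPM in T6-12K, 50.9 CPM in T6-12A, 60.8 CPM in T10-12K, 54.4 CPM in T10-12A and 173 CPM in TAD. Lowest and highest were the same libraries as for miR-465c-5p, although the 10.5 dpp cultures lay close to T6.

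The 3p rows held one measurement. miR-465b-3p and miR-465c-3p were equal in all 7 libraries, at 186 CPM in T6, 323 CPM in T10, 34.3 CPM in T6-12K, 138 CPM in T6-12A, 99.9 CPM in T10-12K, 87.5 CPM in T10-12A and 328 CPM in TAD. In reads, miR-465b-3p differed from 2 times miR-465a-3p by at most 1 read. Of the 5 hairpins with this sequence, 1 is a miR-465a hairpin, 2 are miR-465b and 2 are miR-465c, and dividing 1 read total evenly over the 5 gave all 3 rows in 7 of 7 libraries. Independent Poisson counts would have differed between miR-465b-3p and miR-465c-3p with an SD of 26.1 reads (T6-12K) to 93.0 reads (T10). The 3p rows therefore carry no separate values for the paralogs, and they are summed below.

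miR-465b-5p was the exception to the common pattern. It had 861 reads, or 102 CPM, in T10-12A and 10 reads, or 0.748 CPM, in T6, and it was listed at 0 in T10, T6-12K, T6-12A, T10-12K and TAD. With the libraries at 0 set to 5 reads, its level in T10-12A was at least 273-fold that of T10, at least 144-fold that of T10-12K, at least 220-fold that of T6-12A and at least 33.2-fold that of TAD. No other of the 319 miRNAs above 0 in T10-12A or T10-12K had a larger ratio between those libraries. In T10-12A miR-465b-5p reached rank 112 and held 8.37% (7.85 to 8.92%) of the reads of miR-465b-5p and miR-465c-5p, which differ by 1 base. The share was 0.0384% (0.0209 to 0.0706%) in T6.

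**Figure D1:**
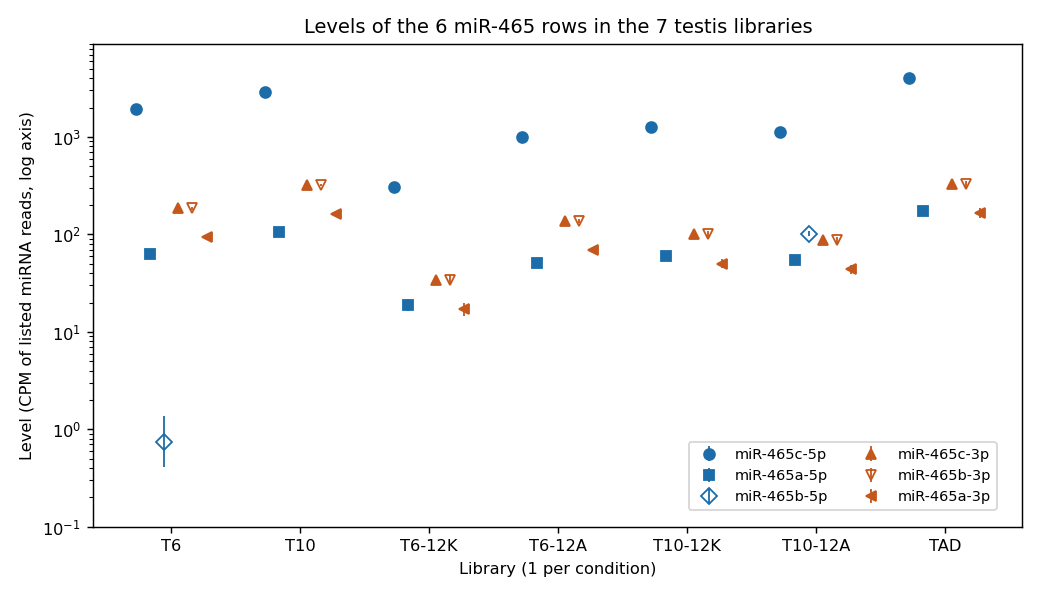
Levels of the 6 miR-465 rows (CPM, log axis) in the 7 libraries, with 95% counting intervals as bars; 5p rows are blue, 3p rows orange, and rows listed at 0 are not drawn. miR-465c-5p lies above every other row in each library, T6-12K is low throughout, and miR-465b-5p appears at 102 CPM in T10-12A and at 0.748 CPM in T6.

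Summed over the 6 rows, the family stood at 408 CPM (396 to 421) in T6-12K, 1384 CPM (1362 to 1407) in T6-12A, 1490 CPM (1464 to 1516) in T10-12A, 1577 CPM (1548 to 1607) in T10-12K, 2477 CPM (2451 to 2504) in T6, 3777 CPM (3745 to 3810) in T10 and 5014 CPM (4906 to 5123) in TAD. This is the order from lowest to highest, with a 12.3-fold range. Neighbours in it did not overlap in counting error. T6-12A, T10-12A and T10-12K lay close together, however, and their order was not the same under other scalings of the libraries. The top of the order also depended on scaling. On the values as deposited, T10 stood above TAD, at log2 ratios to T6 of 0.69 and 0.36. The family accounted for 0.0408% of the listed miRNA reads in T6-12K and for 0.501% in TAD.

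Between the uncultured prepuberal testes, the family was higher at 10.5 dpp than at 6.5 dpp, by 0.61 (0.59 to 0.63) on the log2 scale of CPM. The median over all miRNAs above 0 in both was -0.056. By arm, the 3p rows differed by 0.79 and miR-465c-5p by 0.56 (0.53 to 0.58). None of the 5 rows above 0 in both libraries reached a 2-fold rise, against 11% of all miRNAs. T10 was above T6 for the family on unscaled reads and under all 5 scalings, at 0.38 to 0.69.

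Culture was compared with the testis of the same starting age. After 12 days the family was 6.06-fold lower in T6-12K than in T6, a log2 ratio of -2.60 (-2.65 to -2.55), and the ratio in T6-12A was -0.84 (-0.87 to -0.81). For the 10.5 dpp explants the log2 ratios to T10 were -1.26 (-1.29 to -1.23) in T10-12K and -1.34 (-1.37 to -1.31) in T10-12A. The median over all miRNAs was also below 0, at -1.15 for T6-12K, -0.62 for T6-12A, -0.71 for T10-12K and -0.72 for T10-12A. The family was thus lower than that median in each culture, by the widest margin in T6-12K. There, 27 of 308 miRNAs above 0 in both libraries lay below the family. The same count was 135 of 313 in T6-12A, 88 of 306 in T10-12K and 89 of 309 in T10-12A. In T6-12A the 3p rows (-0.43) and miR-465a-5p (-0.30) lay above the median, and miR-465c-5p (-0.98) lay below it.

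Counted as rows, 5 of the 5 above 0 in both libraries were at least 2-fold lower in T6-12K than in T6, against 57.1% of all miRNAs. In T6-12A none of the 5 was, against 37.9%. At 10.5 dpp, 4 of 5 were at least 2-fold lower in T10-12K, against 40.1%, and 4 of 5 in T10-12A, against 41.4%. The row that stayed within 2-fold at 10.5 dpp was miR-465a-5p, with log2 ratios of -0.80 (-0.96 to -0.65) in T10-12K and -0.96 (-1.12 to -0.81) in T10-12A. miR-465b-5p was the row at least 2-fold higher in T10-12A, against 10.6% of all miRNAs. As 3 of the rows share their reads, these counts rest on 3 separate measurements rather than 5. With median-of-ratios size factors the median over all miRNAs moved to -0.16 in T6-12K against T6, and the rows called lower became 4 of 5, against 23.7%.

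The supplements gave different results at the 2 starting ages. In 6.5 dpp explants the family was 1.76 higher with AlbuMAX I than with KSR on the log2 scale (1.71 to 1.81), a 3.39-fold difference, and all 5 rows above 0 in both were at least 2-fold higher, against 27.4% of all miRNAs (4 rows, against 11.2%, with median-of-ratios size factors). Among single rows the log2 ratio was 1.70 for miR-465c-5p, 1.43 for miR-465a-5p and 2.01 for each of the 3p rows, and the median over all miRNAs was 0.63. In 10.5 dpp explants the ratio was -0.082 (-0.12 to -0.045), and none of the 5 rows reached 2-fold in either direction, against 5.64% higher and 5.64% lower. miR-465b-5p alone rose past 2-fold there. Without its reads the family ratio at 10.5 dpp was -0.18.

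With KSR, the 10.5 dpp explants stood above the 6.5 dpp explants by 1.95 (1.90 to 2.00) on the log2 scale, and 5 of 5 rows were at least 2-fold higher, against 23.4% of all miRNAs. With AlbuMAX I the difference between the starting ages was 0.11 (0.072 to 0.14) for the family, and of the rows only miR-465b-5p was 2-fold higher, against 7.41%. The T6-12K library was therefore the one that set the cultures apart. It also held the highest level of miR-486a-5p, a marker on the red blood cell list, at 2554 CPM against 445 CPM in T6-12A. The other markers on that list, miR-451a and miR-144-3p, were at 0 in both. miR-10a-5p was also highest in T6-12K, at 28387 CPM against 4137 CPM (T6-12A) to 7185 CPM (TAD) elsewhere. The only listed striated muscle marker, miR-133a-3p, had 25.9 CPM there and 23.3 CPM in T6, against 2.60 CPM (T10-12A) to 8.62 CPM (T6-12A) in the other cultures. The endothelial sum of T6-12K (154 CPM) lay between those of T10-12K (124 CPM) and T10-12A (249 CPM). The germ cell list summed to 593 CPM in T6-12K, 1423 CPM in T6-12A, 1918 CPM in T10-12K and 1781 CPM in T10-12A. These sums were above those of T6 (71.8 CPM) and T10 (158 CPM), and the family was lower in each culture. The paper reports miR-34c-5p and miR-449a-5p to be higher where cells are more differentiated, so these sums need not follow the number of germ cells. The part of any cell type in the miR-465 differences was not tested.

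In adult testis the family was higher than in T6 by 1.02 (0.98 to 1.05) on the log2 scale of CPM and than in T10 by 0.41 (0.37 to 0.44), and higher than the mean of both by 0.68 (0.65 to 0.71). miR-465c-5p and miR-465a-5p were at least 2-fold above T6, which makes 2 of 5 rows against 25.8% of all miRNAs. Against T10 none of the 5 rows reached 2-fold, where 17.3% of all miRNAs did, and the 3p rows stood at 0.027 (-0.056 to 0.11), an interval that includes 0. All 5 rows above 0 in both libraries were at least 2-fold higher in TAD than in each cultured library, against 41.2% of all miRNAs for T6-12K, 33% for T6-12A, 34% for T10-12K and 30.6% for T10-12A. miR-465b-5p, at 0 in TAD, went the other way against T10-12A, at least 33.2-fold lower in TAD with its 0 set to 5 reads. With median-of-ratios size factors 2 of the 5 rows were called higher in TAD than in T6-12A, against 28.4% of all miRNAs. On the values as deposited, TAD stood at -0.029 against the mean of T6 and T10 (log2 ratio). Unscaled reads, which differ with the depth of the library, gave -2.36, and on them TAD, with 8166 family reads, was also below T6-12A (14941), T10-12K (11161) and T10-12A (12596).

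**Figure D2:**
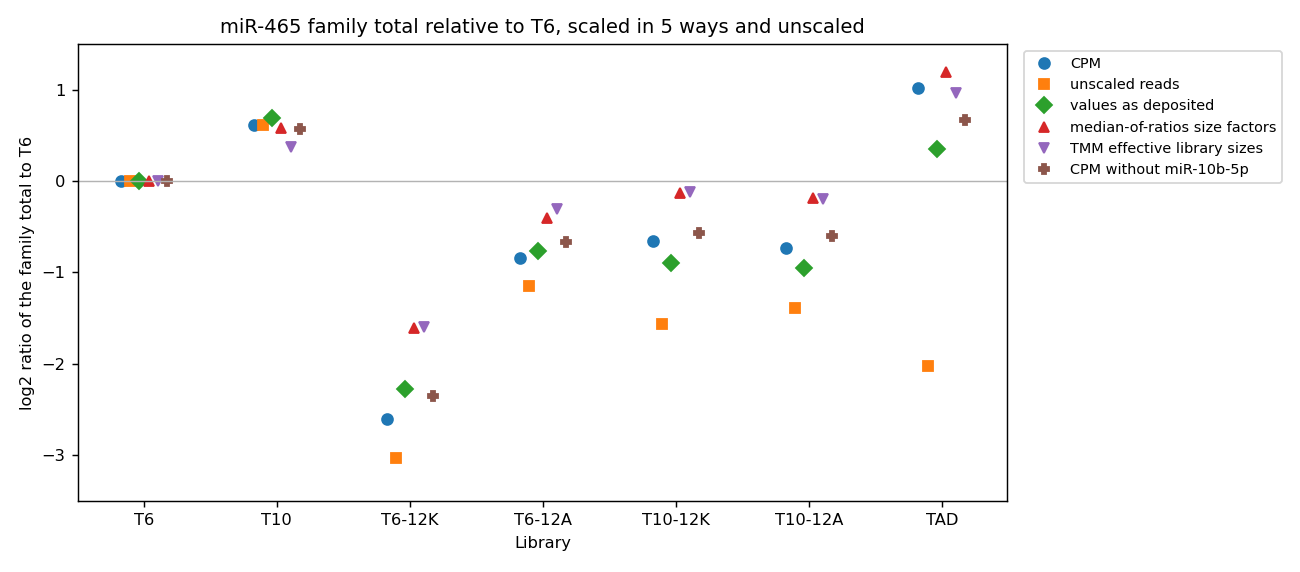
Family total of miR-465 relative to T6 (log2 ratio) in each library under 5 scalings and as unscaled reads, each drawn with its own symbol. T10 lies above T6 and the 4 cultures below it in each case, whereas TAD lies above T6 under the 5 scalings and below it on unscaled reads, of which TAD had the fewest on listed miRNAs (1628770).

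The proportion of the 2 arms does not depend on the scaling of the libraries. The 5p rows made up 75.1% (74.4 to 75.8%) of the family's reads in T6-12A, 78.6% (78.3 to 79.0%) in T10, 79.0% (77.7 to 80.2%) in T6-12K, 81.2% (80.8 to 81.6%) in T6, 83.6% (82.8 to 84.4%) in TAD, 84.2% (83.5 to 84.8%) in T10-12K and 85.3% (84.7 to 85.9%) in T10-12A. The 5p arm was dominant in all 7 libraries. The 10.5 dpp cultures had the highest 5p shares and T6-12A the lowest, while T10 and T6-12K, TAD and T10-12K, and the 10.5 dpp cultures overlapped within counting error.

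The direction of the arm difference after culture was opposite at the 2 ages. Relative to T6, the 5p rows fell more than the 3p rows, by 0.20 (0.09 to 0.32) on the log2 scale in T6-12K and by 0.52 (0.46 to 0.59) in T6-12A. Relative to T10, the 3p rows fell more, by 0.53 (0.45 to 0.61) in T10-12K and 0.66 (0.58 to 0.73) in T10-12A. Leaving out miR-465b-5p changed the T10-12A value to 0.54 and the 5p share there to 84.2%. Between T10-12A and T6-12A the 5p rows were 0.29 higher and the 3p rows 0.66 lower, a difference of 0.95 (0.86 to 1.04), or 0.83 without miR-465b-5p. For comparison, among 35 other hairpins with at least 50 reads on both arms in both libraries, the median size of this difference was 0.34, and 3 hairpins had a larger one. In the 4 comparisons of a culture with its own starting testis, the median size over 34 to 45 other hairpins was 0.39 to 0.67, and 13 to 25 of them had a larger difference than miR-465.

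The proportion of the paralogs also shifted. miR-465a-5p was 3.11% (2.91 to 3.33%) of the reads of miR-465a-5p and miR-465c-5p in T6 and 3.57% (3.39 to 3.75%) in T10. It made up 5.86% (5.10 to 6.73%) in T6-12K, 4.89% (4.51 to 5.31%) in T6-12A, 4.58% (4.17 to 5.02%) in T10-12K and 4.65% (4.26 to 5.09%) in T10-12A, and 4.12% (3.67 to 4.61%) in TAD. Each culture was thus above both prepuberal testes, without overlap in counting error. On the log2 scale miR-465c-5p fell more than miR-465a-5p in all 4 cultures, by 0.95 (0.72 to 1.19) in T6-12K, 0.68 (0.52 to 0.84) in T6-12A, 0.37 (0.22 to 0.53) in T10-12K and 0.40 (0.24 to 0.55) in T10-12A.

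**Figure D3:**
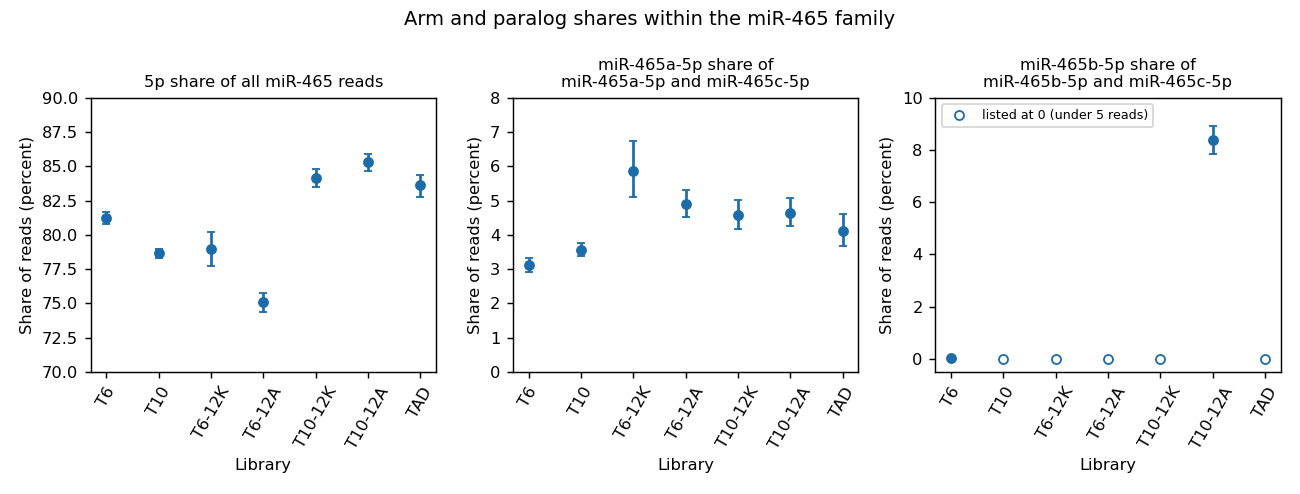
Shares of reads (percent) by library, with 95% Wilson intervals: the 5p share of the family (axis from 70 to 90%), miR-465a-5p as a share of miR-465a-5p and miR-465c-5p, and miR-465b-5p as a share of miR-465b-5p and miR-465c-5p. The 5p share is lowest in T6-12A (75.1%) and highest in T10-12A (85.3%), the miR-465a-5p share is higher in the 4 cultures than in T6 and T10, and the miR-465b-5p share reaches 8.37% in T10-12A.

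The neighbouring genes give the setting of these values. Of the 16 other miRNAs on the list of the X-linked cluster, 14 had at least 1 listed row, 20 rows in all. Not all of them lie close to miR-465. The hairpins of miR-201, miR-547 and miR-509 start 1165 to 1187 kb from the start of Mir465d, farther away than Gm1140, and the others lie within 46 kb. The most abundant were miR-470-5p, with 21742 CPM in T6 and 64587 CPM in TAD, miR-871-3p, with 17386 and 33112 CPM, miR-741-3p, with 4960 and 11922 CPM, and miR-881-3p, with 2785 and 13632 CPM. Next to these the miR-465 family was a minor product, with 2.16% (T6-12K) to 4.69% (T6) of the reads of the cluster including the family.

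Between T10 and T6 all 20 neighbour rows were higher at 10.5 dpp, 10 of them at least 2-fold, against 11% of all miRNAs. Their median log2 ratio was 1.00, and -0.056 over all miRNAs. In T6-12K 17 of 20 were at least 2-fold lower than in T6, against 57.1% of all miRNAs. Their median was -1.66, and -1.15 over all miRNAs. In T6-12A 3 were lower, against 37.9%, and 2 were higher, against 41 of 330 miRNAs. The median there was -0.23, and -0.62 over all miRNAs. The 2 higher rows were the distant miR-201-5p (1.81) and miR-547-3p (1.41). At 10.5 dpp, 8 were at least 2-fold lower in T10-12K (median -0.89), against 40.1% of all miRNAs (median -0.71). In T10-12A 10 were (median -1.01), against 41.4% (median -0.72). The family's own ratio was below the neighbours' median in all of these comparisons. Its share of the cluster's reads was 4.69% (4.64 to 4.74%) in T6 and 3.94% (3.90 to 3.97%) in T10, and lower in each culture, at 2.16% (2.10 to 2.23%) in T6-12K, 2.73% (2.69 to 2.78%) in T6-12A, 2.67% (2.63 to 2.72%) in T10-12K and 2.18% (2.14 to 2.22%) in T10-12A. In TAD it was 3.65% (3.57 to 3.73%).

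With AlbuMAX I against KSR, 19 of 20 neighbour rows were at least 2-fold higher in 6.5 dpp explants (median 1.49). Of all miRNAs 27.4% were (median 0.63). In 10.5 dpp explants 1 neighbour row was (median 0.021), against 5.64% of all miRNAs (median -0.031). In TAD 17 neighbour rows were at least 2-fold above T6 (median 1.72), against 25.8% of all miRNAs (median 0.060). Above T10 there were 6 (median 0.67), against 17.3% (median -0.11).

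**Figure D4:**
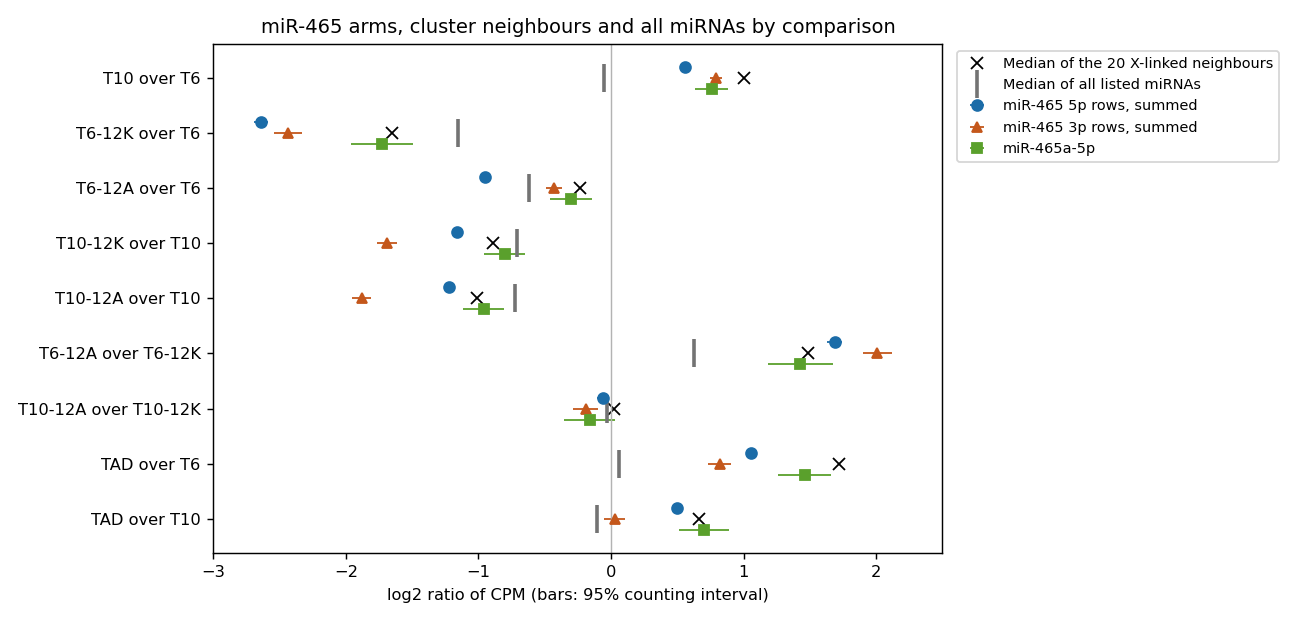
Log2 ratios of CPM by comparison for the miR-465 5p rows, the 3p rows and miR-465a-5p, with 95% counting intervals as bars, beside the medians of the 20 X-linked neighbour rows (crosses) and of all listed miRNAs (grey strokes). The 5p rows lie left of the 3p rows in the comparisons of 6.5 dpp cultures with T6 and right of them for 10.5 dpp cultures with T10, and miR-465a-5p lies right of both in all 4.

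Across the 7 libraries, the profile of the family total was closest to miR-871-5p (Pearson r of log2(CPM + 1) = 0.996), miR-878-5p (r = 0.990), miR-30d-5p (r = 0.986), miR-463-5p (r = 0.985) and miR-872-5p (r = 0.979), among the 118 other miRNAs whose mean level reached 100 CPM. Of these 5, miR-871-5p, miR-878-5p and miR-463-5p belong to the same X-linked cluster and miR-30d-5p and miR-872-5p do not. The least similar were miR-10b-5p (r = -0.797), the most abundant miRNA in the table, and miR-210-3p (r = -0.737). All of these values share the 7 libraries and their totals, of which miR-10b-5p made up 31.2% in TAD to 54.4% in T6-12K, and they are given as descriptions. miR-871-5p and miR-878-5p were among the closest 5 under every alternative tried, while without TAD 3 of the 5 were the same.

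**Figure D5:**
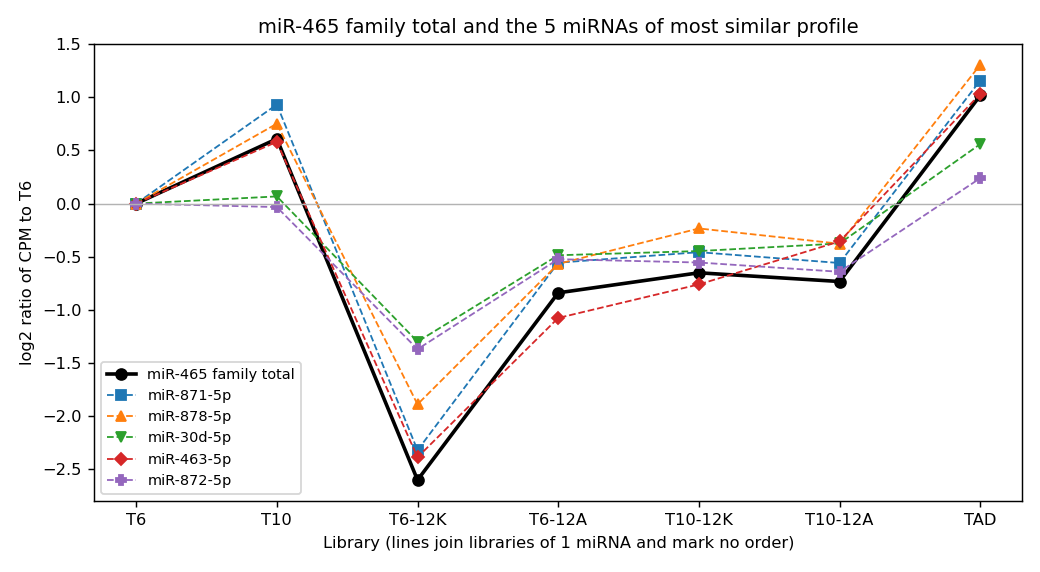
Log2 ratio of CPM to T6 for the miR-465 family total (black) and the 5 miRNAs with the highest correlation to it, in the 7 libraries. All 6 are lowest in T6-12K and highest in TAD, and miR-30d-5p and miR-872-5p span a smaller range than the family.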

How the data were processed

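Small RNA of 7 mouse testis libraries, 1 per condition, was analysed. According to the methods, the authors trimmed the reads, aligned them with Bowtie to mm10 and then to miRBase release 21, and discarded miRNAs below 50 reads, although the table holds values down to 5 reads. The submitters' processing notes name FastQC, HTSeq and DESeq. The deposited signal per miRNA was reads divided by 1 factor per library, and the treatment of reads matching several paralogs is not given in the sources used here. The 7 per-library files were identical to the series table.

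Reads were recovered by dividing by the worth of 1 read (0.615 in T6 to 3.19 in TAD). Below 10000 reads, 100% of values were whole within 0.1. On simulated data for 331 miRNAs in 140 draws over the libraries, 99.9957% of the values were recovered as the exact number of reads. The design had anticipated scaled values. Reads were scaled to CPM over listed miRNAs. With 1 library per condition no test was run. Ratios of libraries have exact conditional binomial 95% intervals, means of libraries and differences of ratios have intervals from the delta method, and shares have Wilson intervals. Zeros were set to 5 reads in ratios. A 2-fold difference in CPM was counted over miRNAs above 0 in either library, a bound at 0 counting in 1 direction only. Counts out of 5 family rows were over rows above 0 in both libraries, and so leave out miR-465b-5p. The 2 kinds of share thus have unlike bases. Medians used miRNAs above 0 in both.

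Alternatives were unscaled reads (with no correction for the depth of listed miRNAs), values as deposited, median-of-ratios factors, TMM (30% of M and 5% of A trimmed), CPM without miR-10b-5p, the 3p rows counted once, other pseudocounts (0.1 and 10 CPM against 1), filters on low values and leaving out each cultured library. Totals without miR-465a-5p or miR-465b-5p, and the arm comparison without miR-465b-5p, were added after seeing the data. The miRNAs named were the members, the 5 most and 2 least similar in profile, the 4 most abundant neighbours and markers. miR-10a-5p was added after seeing the data. The members, lists and rules were chosen with earlier results of these data known. Sequences are from RefSeq (GRCm38.p6) and positions and neighbouring genes from GENCODE M21 on GRCm38. Computations ran under Python 3.11.15 with scipy 1.17.1, pandas 2.3.3 and numpy 2.4.6, and figures were drawn with matplotlib 3.10.9.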

Additional observations from a re-analysis of the deposited data

Results flagged for a closer look

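The effect of AlbuMAX I against KSR had opposite signs at the 2 starting ages for the family and for the 5 rows above 0 in all 4 cultures, although at 10.5 dpp the counting intervals of miR-465a-3p (-0.19, -0.40 to 0.026) and miR-465a-5p (-0.16, -0.35 to 0.034) included 0. The log2 ratio in 6.5 dpp explants minus that in 10.5 dpp explants was 1.84 for the family total, 1.89 for miR-465c-5p, 1.59 for miR-465a-5p, 2.20 for miR-465a-3p and 2.20 for both miR-465b-3p and miR-465c-3p, whose reads are shared. The difference was not tested, since each value rests on 1 library. Signs were opposite for 147 of the 303 miRNAs above 0 in the 4 cultures (48.5%), the median difference over them was 0.60, and 23 had a larger difference than the family. Unscaled reads, more numerous over all listed miRNAs in T10-12A (8452588) than in T10-12K (7075528), gave a 10.5 dpp ratio of 0.17 for the family.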

How the results depend on the processing

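The log2 ratios of the family total depended on how the libraries were scaled, and the cause was not tested. Values on unscaled reads also hold the differences in depth between the libraries. For T10 against T6 (0.61), the value was 0.69 as deposited, 0.58 with median-of-ratios factors, 0.38 with TMM and 0.57 without miR-10b-5p. With the mean of the 3p rows in place of their sum it was 0.58. For the 6.5 dpp cultures against T6 (-1.47), it was -1.80 on unscaled reads, -1.33 as deposited, -0.89 with median-of-ratios, -0.81 with TMM and -1.28 without miR-10b-5p. The mean of the 3p rows gave -1.53. For the 10.5 dpp cultures against T10 (-1.30), it was -2.09, -1.61, -0.74, -0.54 and -1.16 under the same 5 settings and -1.35 without miR-465b-5p. Leaving out 1 cultured library gave -2.60 to -0.84 at 6.5 dpp (-0.84 without T6-12K, -2.60 without T6-12A) and -1.34 to -1.26 at 10.5 dpp. For AlbuMAX I against KSR at 6.5 dpp (1.76), it was 1.88, 1.51, 1.20, 1.29 and 1.69 under these 5 settings. At 10.5 dpp (-0.082) it was 0.17 on unscaled reads, -0.035 without miR-10b-5p, -0.18 with the mean of the 3p rows and -0.18 without miR-465b-5p. For TAD against the prepuberal mean (0.68), it was -2.36 on unscaled reads, -0.029 as deposited, 0.87 with median-of-ratios, 0.76 with TMM and 0.35 without miR-10b-5p. The mean of the 3p rows gave 0.72. miR-465a-5p in TAD against the prepuberal mean changed sign on unscaled reads, at -2.01.

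With median-of-ratios factors, 12 of the 30 counts of 2-fold differences moved by over 1.5 times. Against T6, T6-12K had 36 miRNAs higher and 188 lower in CPM, and 66 and 78 with those factors. Against T10, T10-12K had 132 lower (78 with those factors), and T10-12A 137 lower and 35 higher (90 and 53). For AlbuMAX I at 6.5 dpp, 88 were higher and 19 lower (36 and 44), and for T10-12K against T6-12K 74 were higher (44). Rows of the family at least 2-fold lower then numbered 4 in T6-12K, 3 in T10-12K and 3 in T10-12A, and rows at least 2-fold higher 4 of 5 for AlbuMAX I at 6.5 dpp and 2 of 5 for TAD against T6-12A. The limit of a mean of 100 CPM left 120 or 121 miRNAs to count. Smaller counts follow from that limit itself, and all 30 moved by over 1.5 times. As shares they changed by differing amounts. The share higher in TAD than in T6 went from 25.8% to 25.6%, and the share lower in T6-12A than in T6 from 37.9% to 19.0%. No paired analysis was possible because each condition had 1 library. Depth limits what the 0 of miR-465b-5p in TAD shows, since 5 reads there are worth 3.07 CPM.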
